A study of Cricetulus griseus with 6 samples.

Results

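The genes described here carry the names of proteins of the cytosolic ribosome and were measured in Chinese hamster ovary cells. They were chosen by name from the array annotation, as every transcript with exactly 1 gene symbol that starts with Rpl or Rps followed by a digit, or with Rplp, or is Rpsa, leaving out the S6 kinases (Rps6k) and Rps19bp1. This gave 41 genes out of 14899 genes with a symbol of their own. By name alone, paralogs included, 27 were counted to the large subunit and 14 to the small subunit. The rule itself uses the name and no value on the arrays, although it was set with earlier results of these data known. For 2 genes with more than 1 transcript, Rpl7 and Rps6, the transcript that was brightest on average over the 6 arrays was taken.

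The data come from 6 Affymetrix microarrays of hamster transcripts, and every condition has 1 array. CHO-K1 is the parental Chinese hamster ovary line, wild type in the labels, and CHO-K6 is a line derived from it that stably expresses human HER2, the receptor that both antibodies bind, and that was kept under G418 selection. CHO-K1 was left untreated or given trastuzumab + pertuzumab. CHO-K6 was left untreated or given either antibody alone or both together. Each antibody was given at 10 µg/mL for 24 h in medium with serum, after all cells had spent a day in low-serum medium. The controls were untreated cells and not cells given an isotype antibody, and no CHO-K1 array with a single antibody was analysed here.

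With 1 array a condition, no difference below has a replicate check, and an effect of a single array or dish cannot be told apart from that of its condition. CHO-K6 is also a single transfected line, so HER2 and any other difference between the lines cannot be told apart. The values are log2 signals as the authors deposited them, so a difference of 1 is a 2-fold change. Probes of different genes differ in brightness, so values are compared within a gene only. RNA of whole cultures was measured, and according to the paper the same amount of total RNA was taken for each sample. A lower value thus stands for a smaller share of the RNA. A change in some cells and a change in all cells cannot be told apart.

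The 6 arrays had medians of 5.89 to 5.91 over 29700 transcripts. The hamster Erbb2 probes read 8.50 to 8.64 on the CHO-K1 arrays and 8.80 to 9.21 on the CHO-K6 arrays, and how well they detect the human transgene is not given in the sources used here. The labels call both lines epithelial. Of 5 epithelial markers measured, Epcam, Krt8, Krt18 and Ocln stayed under 5 on every array and Cdh1 read 5.86 to 6.49, while of 5 mesenchymal genes Vim (13.19 to 13.30), Sparc (12.23 to 12.63) and Fn1 (11.39 to 11.54) were bright and Col1a1 (5.78 to 6.12) and Cdh2 (5.09 to 5.40) were dim. Ptprc, a marker of blood cells, was likewise under 5.

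A ribosome joins a small subunit, which reads the messenger RNA, to a large subunit, which makes the peptide bond and passes the new protein through an exit tunnel. Its proteins are mostly used in equal numbers, their messengers are among the most abundant in a growing cell, and many carry a 5′ pyrimidine tract through which the mTOR pathway, one of the pathways downstream of HER2, controls their translation. Such control acts on translation and is not measured by RNA level. The paper states that HER2 does not signal through PI3K/AKT or MAPK in CHO-K6, and mTOR activity was not measured on these arrays. Ribosomal protein genes also have many processed pseudogenes and some near-identical paralogs, and array probes may pick up RNA of these copies too.

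The large-subunit genes measured were Rpl3, Rpl7, Rpl7a, Rpl7l1, Rpl8, Rpl9, Rpl10, Rpl11, Rpl13, Rpl13a, Rpl14, Rpl15, Rpl18, Rpl22l1, Rpl23, Rpl24, Rpl26, Rpl27, Rpl27a, Rpl29, Rpl31, Rpl32, Rpl34, Rpl35, Rpl36al, Rpl37a and Rplp2. The small-subunit genes were Rps2, Rps3, Rps3a, Rps6, Rps9, Rps13, Rps15, Rps15a, Rps16, Rps21, Rps23, Rps24, Rps25 and Rps28. The gene name in the array annotation matched RefSeq by identifier for 40 of them. Transcripts that the annotation gives to several genes hold 8 more ribosomal protein symbols (Rpl3l, Rpl4, Rpl5, Rpl12, Rpl23a, Rps7, Rps10 and Rps14), which were used only as an alternative. Rplp0, Rplp1, Rpsa, Rps19 and Rps27a were not analysed here. Of the 41 genes 37 had a mean log2 signal of 10 or more, as did 1916 of the 14899 genes, which are called the bright genes here. The other 4 were Rpl10, Rpl22l1, Rps15 and Rps28.

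To examine how the genes varied over the conditions, each gene was set against its own mean. The CHO-K1 arrays were the high ones. The median deviation of the 41 genes was 0.10 on the untreated CHO-K1 array and 0.14 on the treated one, and −0.03, −0.09, −0.02 and −0.05 on the CHO-K6 arrays that were untreated or treated with trastuzumab, pertuzumab and both. Counting an array only where no other array equalled it, the treated CHO-K1 array was the highest of the 6 for 26 genes and the untreated CHO-K1 array for 8, and the CHO-K6 arrays together for 5. The lowest value lay on the trastuzumab array for 12 genes, on the untreated CHO-K6 array for 11, on the pertuzumab array for 11 and on the combination array for 2. Of the 1916 bright genes, the treated CHO-K1 array was the highest for 515 and the lowest for 469. The untreated CHO-K1 array was so for 290 and 267, and the untreated CHO-K6 array for 249 and 435. The counts were 252 and 258 for trastuzumab, 447 and 252 for pertuzumab, and 71 and 114 for both in CHO-K6.

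**Figure D1:**
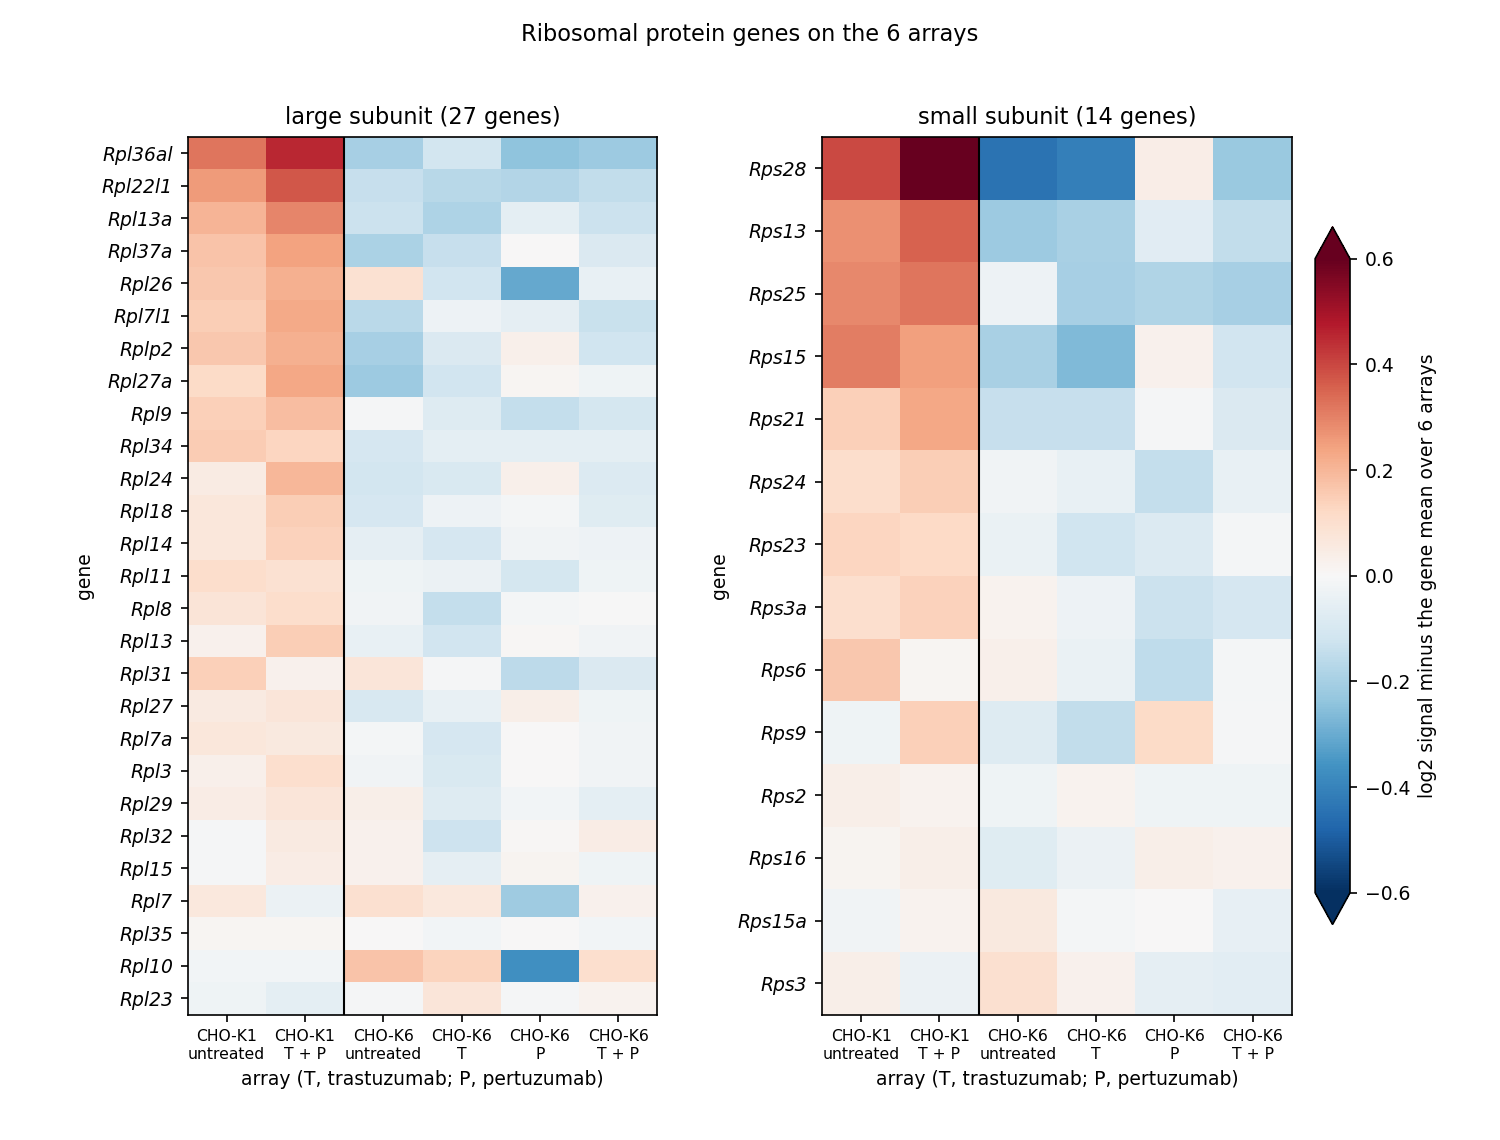
Log2 signal of each ribosomal protein gene minus its own mean over the 6 arrays (colour, red above and blue below the mean), with the large-subunit genes on the left, the small-subunit genes on the right and 1 column per array. Most genes are red in the 2 CHO-K1 columns and pale or blue in the 4 CHO-K6 columns, with Rps28 and Rpl36al the deepest in colour and Rpl35 nearly blank.

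Untreated CHO-K6 was compared with untreated CHO-K1 to ask how the HER2-expressing line differs from its parent. Ribosomal protein messengers were slightly lower in CHO-K6. The median difference of the 41 genes was −0.13, beside −0.03 for all transcripts and −0.02 for the genes with a mean signal of 10 or more, and 34 genes lay below 0 and 7 above. Of all transcripts 53.2% lay below 0 and 45.2% above. Counting a difference of 1.2-fold or more, 12 genes (29.3%) were lower in CHO-K6 and none was higher. Of all transcripts 20.8% were lower and 18% higher. Rps28 alone was lower by 1.5-fold or more, as were 4.27% of all transcripts, and none of the 41 genes reached 2-fold, which 1.47% of all transcripts did upwards and 0.63% downwards.

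The medians of the large and the small subunit were nearly equal. They were −0.12 and −0.13, a difference of 0.01. Lower by 1.2-fold or more were 7 of 27 large-subunit genes (25.9%) and 5 of 14 small-subunit genes (35.7%). Of all transcripts 20.8% were, so the large-subunit count is near the background. The arrays of the 2 lines treated with trastuzumab + pertuzumab give the same comparison on other arrays. There the median of the 41 genes was −0.17, beside −0.05 for all transcripts, and both subunits had a median of −0.17. Of the 41 genes 38 lay below 0, where 56.4% of all transcripts did. Lower by 1.2-fold or more were 13 genes (31.7%), 8 large and 5 small, and none was higher. Of all transcripts 23.9% were lower and 18.5% higher. Rps28 and Rpl36al were lower by 1.5-fold or more, as were 5.12% of all transcripts.

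The 2 line comparisons share no array. Of the 12 genes lower in untreated CHO-K6, 11 were also lower in the treated pair, 91.7% of the first list and 84.6% of the second: Rpl7l1, Rpl13a, Rpl22l1, Rpl36al, Rpl37a, Rplp2, Rps13, Rps15, Rps21, Rps25 and Rps28. Rpl27a passed only in the untreated pair, at −0.33 and −0.26, and Rpl9 and Rpl24 only in the treated pair. Over the 41 genes the differences of the pairs correlated with Pearson's r = 0.91 and Spearman's rho = 0.86. The 1916 bright genes gave r = 0.93, so the likeness of the pairs is not particular to the ribosome, and genes of 1 array are not independent replicates. The pairs had opposite signs for 4 of the 41 genes and for 228 of the bright genes. The overlap of the lower genes was counted for the 41 genes only, so no share over all transcripts stands beside it.

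**Figure D2:**
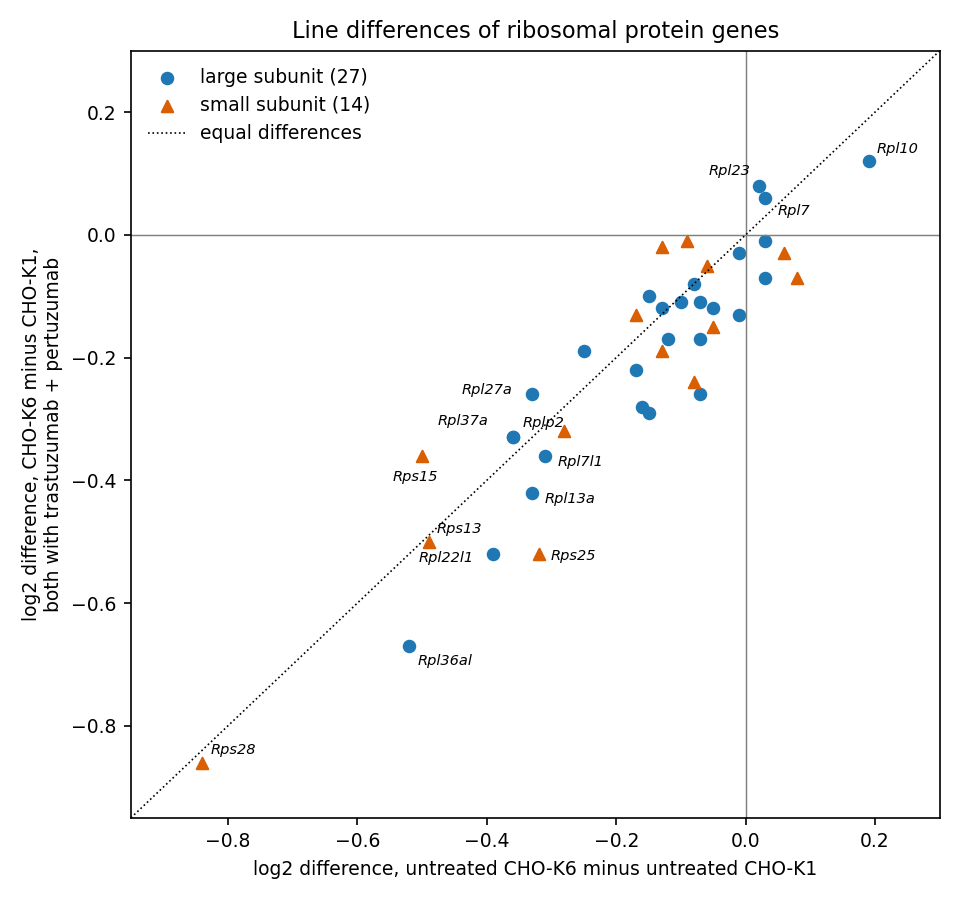
Difference between the lines for each ribosomal protein gene on the untreated arrays (x axis, log2, CHO-K6 minus CHO-K1) and on the arrays treated with trastuzumab + pertuzumab (y axis, log2), with circles for the large and triangles for the small subunit. Points lie along the dotted line of equal differences, mostly in the lower left, from Rps28 at −0.84 and −0.86 to Rpl10 at 0.19 and 0.12.

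Both subunits were then followed through the parts of the ribosome. In the head of the small subunit, the part that swivels as the messenger moves, 5 of 14 listed genes were measured, with a median line difference of −0.32 on the untreated and −0.36 on the treated arrays. Rps28, whose protein sits where the messenger leaves the ribosome, read 10.18 and 10.42 on the untreated and treated CHO-K1 arrays. On CHO-K6 it read 9.34 untreated, 9.37 with trastuzumab, 9.82 with pertuzumab and 9.56 with both. All CHO-K6 arrays were lower than both CHO-K1 arrays, by 1.79-fold in the untreated and 1.82-fold in the treated pair, and the spread of 0.48 within CHO-K6 was also wide.

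Rps15, next to the decoding region, read 10.30 and 10.24 on the CHO-K1 arrays. On CHO-K6 it read 9.80 untreated, 9.73 with trastuzumab, 10.02 with pertuzumab and 9.88 with both, again without overlap of the lines (1.41-fold lower untreated and 1.28-fold treated). Rps25, needed for initiation at some viral internal entry sites, read 12.12 and 12.15 on the CHO-K1 arrays and 11.80, 11.63, 11.65 and 11.63 on the CHO-K6 arrays in the same order. Here the untreated array was the high one within CHO-K6, and the line difference was −0.32 untreated and −0.52 treated. Rps3, which lines the messenger entry, and Rps16, which reaches towards the peptidyl transfer RNA, overlapped between lines, with differences of 0.06 and −0.03 for Rps3 and of −0.09 and −0.01 for Rps16.

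In the body of the small subunit, 9 of 17 listed genes were measured and their medians were −0.13 and −0.15. Rps13 read 11.32 and 11.40 on the CHO-K1 arrays and 10.83, 10.85, 10.98 and 10.90 on the CHO-K6 arrays, so it was lower on each of the latter, at −0.49 untreated and −0.50 treated. Rps21 read 13.21 and 13.30 in CHO-K1 and 12.93, 12.93, 13.06 and 12.98 in CHO-K6. It too did not overlap, at −0.28 and −0.32. Smaller differences without overlap were seen for Rps23 of the decoding centre (−0.17 and −0.13), Rps24, mutated in Diamond-Blackfan anaemia in humans (−0.13 and −0.19), and Rps3a (−0.08 and −0.24).

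The lines overlapped in the other 4 genes of the body. Rps2, at the messenger entry, stayed between 13.15 and 13.21 on all 6 arrays. Rps15a differed by 0.08 untreated and −0.07 treated, and Rps9 by −0.05 and −0.15. Rps6, the ribosomal target of the S6 kinases, read 12.50 and 12.35 in CHO-K1 and 12.37, 12.30, 12.19 and 12.33 in CHO-K6, which overlap at the treated CHO-K1 and untreated CHO-K6 arrays. Its messenger level says nothing of its phosphorylation.

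In the large subunit, Rpl36al and Rpl22l1 had the lowest line differences in both pairs. Rpl36al, a paralog of Rpl36a, read 10.68 and 10.81 on the CHO-K1 arrays and 10.16, 10.25, 10.12 and 10.14 on the CHO-K6 arrays. The lines were separated by 0.43, the widest gap among the 41 genes, and CHO-K6 was 1.43-fold lower untreated and 1.59-fold treated. Rpl22l1, a paralog of Rpl22, read 7.81 and 7.93 in CHO-K1 and between 7.38 and 7.42 on the 4 CHO-K6 arrays, with differences of −0.39 and −0.52. Its 4 CHO-K6 values lay within 0.04 of each other, so the antibody arrays hardly differed from the untreated one.

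A further paralog, Rpl7l1, likewise counted by name, read 10.86 and 10.94 in CHO-K1 and 10.55, 10.68, 10.66 and 10.58 in CHO-K6. Its line differences were −0.31 and −0.36. Those of Rpl7 itself were 0.03 and 0.06, on the other side of 0. Rpl36a and Rpl22, the partners of the other paralogs, were not among the genes with a transcript of their own. Rpl10 and Rpl26, whose paralogs were likewise not measured, differed by 0.19 and −0.07 on the untreated arrays.

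Of the stalk, the flexible arm that recruits the elongation factors, Rplp2 alone was measured of 3 listed genes. It read 12.86 and 12.91 in CHO-K1 and 12.50, 12.61, 12.73 and 12.58 in CHO-K6, lower on all CHO-K6 arrays and by 1.28-fold in the untreated pair. Rpl37a gave the same differences (−0.36 and −0.33), from 12.02 and 12.09 in CHO-K1 to 11.66, 11.71, 11.85 and 11.76 in CHO-K6. Rpl13a, which in human macrophages can leave the ribosome to silence inflammatory messengers, read 12.35 and 12.44 in CHO-K1 and 11.96 to 12.09 in CHO-K6. In all 3 genes the pertuzumab array was the highest of CHO-K6 and still below both CHO-K1 arrays.

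Rpl11, which forms a particle with Rpl5 and the 5S ribosomal RNA and binds the p53 regulator Mdm2 when ribosome assembly fails, read 12.88 and 12.87 in CHO-K1 and 12.75, 12.74, 12.67 and 12.75 in CHO-K6. This small difference of −0.13 and −0.12 still left the lines apart, because the arrays of each line lay close together. The transcript annotated to both Rpl5 and another gene, used only as an alternative, went the other way, at 0.23 and 0.25. At the rim of the exit tunnel 3 of 8 listed genes were measured, and they behaved unlike each other. Rpl35 ranged over only 0.03 in all, from 12.80 to 12.83, the narrowest range of the 41 genes. Rpl26 ranged over 0.52 and Rpl31 over 0.30, both with their lowest value on the pertuzumab array.

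Looking at all 6 arrays together, the 4 CHO-K6 arrays lay below both CHO-K1 arrays for 29 of the 41 genes (70.7%), beside 21.1% of all transcripts and 29.2% of the bright genes. They lay above both for 1 gene, Rpl23, beside 15.9% of all transcripts and 25.3% of the bright genes. The gap of Rpl23 was 0.02. The other 11 genes overlapped: Rpl7, Rpl10, Rpl15, Rpl31, Rpl32, Rps2, Rps3, Rps6, Rps9, Rps15a and Rps16. By subunit, 21 of 27 large-subunit genes and 8 of 14 small-subunit genes were lower on all CHO-K6 arrays.

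Many of these gaps were small. Asking for a gap of 0.1 or more left 17 genes lower (41.5%), 10 large and 7 small, and none higher, beside 12.1% and 10.3% of all transcripts and 17.5% and 14.8% of the bright genes. After Rpl36al, the widest gaps were those of Rpl22l1 (−0.39), Rps28 (−0.36), Rps13 (−0.34) and Rps25 (−0.32). For comparison, the CHO-K1 arrays differed from each other by a median of 0.06 per gene and the 4 CHO-K6 arrays spread over a median of 0.13, while the mean of the CHO-K6 arrays minus that of the CHO-K1 arrays had a median of −0.16.

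Ribosomal protein genes did not all vary to the same extent. The range over the 6 arrays had a median of 0.29 over the 41 genes, beside 0.33 over the bright genes and 0.42 over all genes. It was 0.26 in the large and 0.29 in the small subunit. The widest ranges were those of Rps28 (1.08), Rpl36al (0.69), Rps13 and Rps15 (0.57 each) and Rpl22l1 (0.55), and the narrowest those of Rpl35 (0.03), Rps2 (0.06), Rpl15 (0.10), Rps15a and Rps16 (0.11 each).

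Signal went along with range. The 24 genes with a mean signal of 12 or more had a median range of 0.20 and a median line difference of −0.09 untreated and −0.11 treated. The 13 genes between 10 and 12 had 0.33, −0.15 and −0.26, and the 4 genes below 10 had 0.56, −0.45 and −0.44. All genes of the array with a mean of 12 or more likewise had a median range of 0.21. Their median line difference was −0.02 untreated and −0.06 treated. The part of signal level in the size of these differences was not tested. Within each of these bands the CHO-K6 arrays were the lower ones for most members, 15 of 24, 11 of 13 and 3 of 4, where 31.6%, 29.0% and 23.3% of all genes in the band were.

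**Figure D3:**
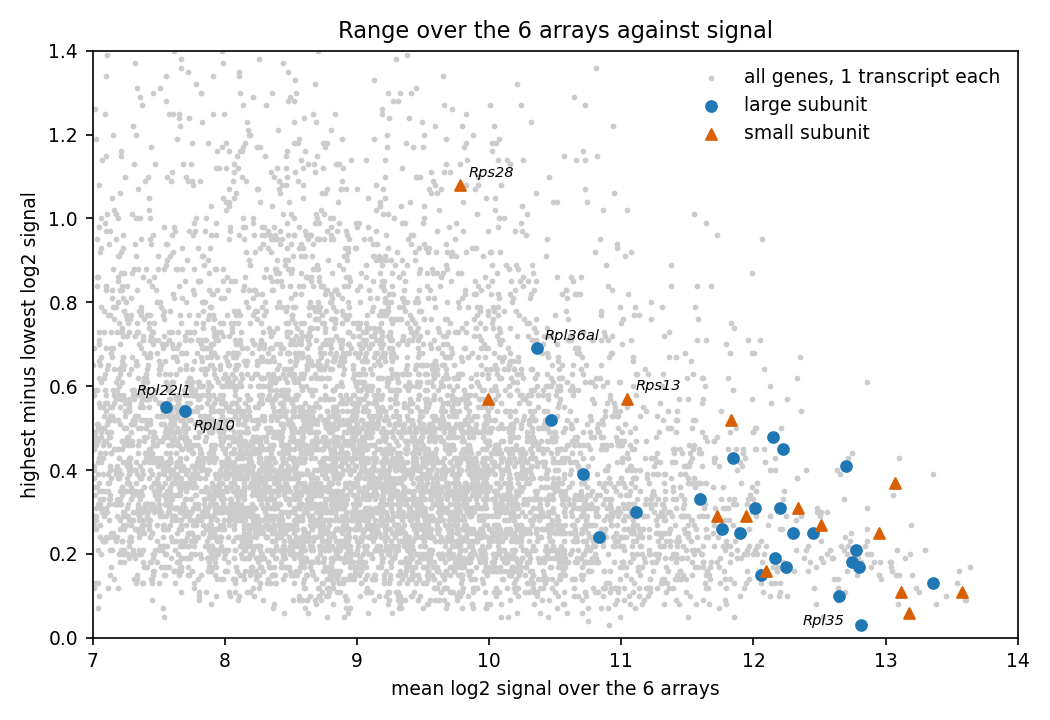
Highest minus lowest log2 signal over the 6 arrays (y axis) against mean log2 signal (x axis) for the large-subunit genes (circles), the small-subunit genes (triangles) and all genes with 1 transcript each (grey dots, some beyond the axes). The ribosomal protein genes crowd at the right at ranges near 0.2, and Rps28, at a range of 1.08, and Rpl36al, at 0.69, stand highest among them.

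To examine the effect of the antibodies, each treated array was compared with the untreated array of its line. The 3 CHO-K6 comparisons share the untreated array, so their values are given side by side and are not independent of each other. Ribosomal protein genes as a group stayed near 0. With pertuzumab the median was 0.00 (large 0.01, small −0.02), beside 0.04 for all transcripts and 0.05 for the bright genes. With trastuzumab it was −0.04 (large −0.03, small −0.06), beside 0.00 and 0.01, and with both antibodies it was 0.00 (large 0.00, small 0.02), beside 0.01 and 0.01.

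With pertuzumab, 1 gene rose by 1.2-fold or more and 3 fell, where 16.7% of all transcripts were higher and 14.3% lower. At 1.5-fold none of the 41 genes was higher or lower, where 1.41% and 2.94% of all transcripts were. The gene that rose by 1.2-fold was Rps28, by 0.48 or 1.39-fold. The genes that fell were all of the large subunit: Rpl10, which is added late and is needed for the subunits to join, by 1.45-fold, Rpl26 by 1.32-fold and Rpl7 by 1.24-fold. None of the 41 genes passed 1.2-fold with trastuzumab, where 6.98% of all transcripts were higher and 7.95% lower, or with both antibodies in CHO-K6, where 7.48% and 7.71% were. On the scale of the bright genes, 239 of 1916 were higher and 168 lower with pertuzumab, 18 and 6 with trastuzumab, and 14 and 6 with both.

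Rpl10 read 7.68 on both CHO-K1 arrays and 7.87 untreated, 7.83 with trastuzumab, 7.33 with pertuzumab and 7.80 with both on CHO-K6. The pertuzumab array stood alone, below the other CHO-K6 arrays and below both CHO-K1 arrays. Rpl10 is among the 4 dimmest of the 41 genes. Rpl7 read 12.08 and 11.98 in CHO-K1 and 12.11, 12.08, 11.80 and 12.04 in CHO-K6, likewise with the pertuzumab array alone at the bottom.

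The second transcript of Rpl7 was dimmer and moved further in the same direction, with 9.23 and 8.99 in CHO-K1 and 9.38, 9.08, 8.68 and 9.02 in CHO-K6. Its differences from the untreated array were −0.70 with pertuzumab, −0.30 with trastuzumab, −0.36 with both and −0.24 with both in CHO-K1. The 2 transcripts thus had the same sign in each of the 4 antibody comparisons, with larger values in the dimmer one. The second transcript of Rps6 differed by −0.20 with pertuzumab, beside −0.18 for the first.

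Rpl26, an exit tunnel protein that in human cells also binds p53 messenger RNA, read 10.63 and 10.68 in CHO-K1 and 10.56, 10.35, 10.16 and 10.42 in CHO-K6. All 3 treated CHO-K6 arrays were below the untreated one, at −0.21 with trastuzumab, −0.40 with pertuzumab and −0.14 with both, and the treated CHO-K1 array was above its control by 0.05. Rpl31, its neighbour at the rim, differed by −0.08, −0.23 and −0.16 in CHO-K6 and by −0.12 in CHO-K1. Rps25 had nearly the same value with each antibody treatment (−0.17, −0.15 and −0.17) and 0.03 in CHO-K1.

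**Figure D4:**
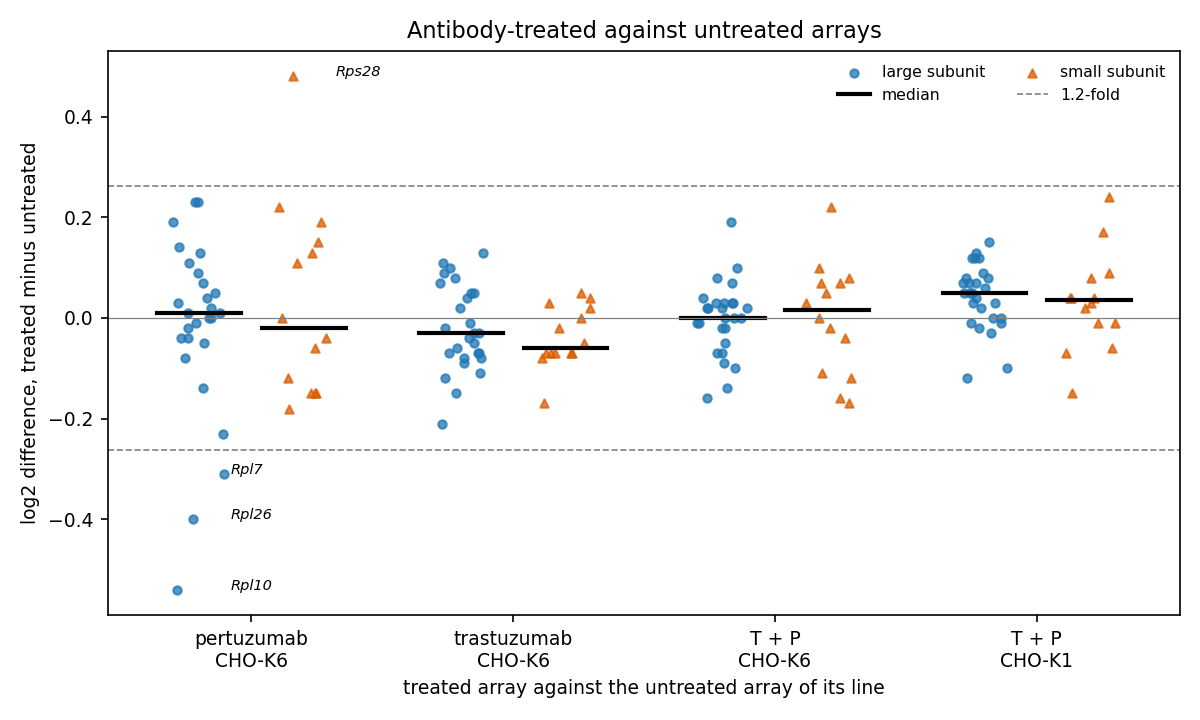
Log2 difference between each antibody-treated array and the untreated array of its line (y axis) for every ribosomal protein gene, with circles for the large and triangles for the small subunit, black bars at the medians and dashed lines at 1.2-fold. The pertuzumab points spread from −0.54 (Rpl10) to 0.48 (Rps28), and no gene crosses a dashed line in the other 3 comparisons.

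The counts of 1 gene up and 3 genes down with pertuzumab are smaller shares than those of all transcripts, and they rest on 1 array. Next to Rps28, positive differences of 0.19 to 0.23 were seen for Rpl27a, Rplp2, Rpl37a, Rps15 and Rps9, none of which passed 1.2-fold. Trastuzumab gave values of 0.10 for Rpl27a, 0.11 for Rplp2 and 0.05 for Rpl37a, and −0.07 for both Rps15 and Rps9. Both antibodies gave 0.19, 0.08, 0.10, 0.08 and 0.07 in that order of genes. Within CHO-K6 the pertuzumab array was strictly the highest for 17 genes and strictly the lowest for 11. The untreated array was so for 14 and 11, the trastuzumab array for 4 and 12, and the combination array for 3 and 2. This order was counted for the 41 genes only, so no share over all transcripts stands beside it.

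Pertuzumab and trastuzumab were also set against each other, on arrays that hold 1 antibody each. The median difference, pertuzumab minus trastuzumab, was 0.04 over the 41 genes, beside 0.05 over all genes, with 25 genes above 0 and 15 below, where 58.0% of all genes lay above. It ran from −0.50 to 0.45. At 1.2-fold, 2 genes were higher with pertuzumab, both of the small subunit (Rps28 and Rps15), and 2 lower, both of the large subunit (Rpl10 and Rpl7), where 16.1% of all transcripts were higher and 14.1% lower. These counts, too, lie below those shares.

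Genes that were lower in CHO-K6 than in CHO-K1 on the arrays treated with both antibodies can be read on the pertuzumab and the untreated CHO-K6 arrays, which are other arrays. Of those 13 genes, 9 (69.2%) lay above 0 with pertuzumab, with a median of 0.13, and of the other 28 genes 11 lay above 0, with a median of −0.01. Of all transcripts 54.7% lay above 0 with pertuzumab. Over the 41 genes the line difference and the pertuzumab difference correlated with r = −0.48. The bright genes gave r = −0.52, with 90.1% of their 365 lower genes above 0, so the relation was found among the bright genes in general. With trastuzumab the correlation was −0.20 over the 41 genes and −0.06 over the bright genes. The genes that went the other way among the 13 were Rps25, Rpl9, Rpl36al and Rpl22l1, at −0.15, −0.14, −0.04 and −0.04 with pertuzumab.

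In CHO-K1, which was not given the human receptor, the array with both antibodies read slightly higher. The median was 0.04 (large 0.05, small 0.04), beside 0.02 for all transcripts and 0.01 for the bright genes, and 28 genes lay above 0 and 11 below, where 52.5% of all transcripts lay above and 45.5% below. No gene passed 1.2-fold, where 12.7% of all transcripts were higher and 11.9% lower. The highest values were those of Rps28 (0.24), Rps9 (0.17) and Rpl24 (0.15), and the lowest those of Rps6 (−0.15), Rpl31 (−0.12) and Rpl7 (−0.10). In CHO-K6 the same treatment gave values from −0.17 to 0.22.

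The pertuzumab comparison in CHO-K6 and the combination comparison in CHO-K1 share no array. Over the 41 genes they correlated with r = 0.56 and rho = 0.52, with 17 genes above 0 in both, 6 below 0 in both, 14 of opposite sign and 4 at 0 in 1 of them. The bright genes gave r = 0.80. Rps28 (0.48 and 0.24) and Rps9 (0.19 and 0.17) were high in both, and Rpl7 (−0.31 and −0.10), Rpl31 (−0.23 and −0.12) and Rps6 (−0.18 and −0.15) were low in both.

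Genes that work with the ribosome were read beside these. Of the ribosomal proteins whose symbols do not start with Rpl or Rps, Fau, which is made as a fusion with a ubiquitin-like protein, read 10.37 and 10.59 in CHO-K1 and 9.56, 9.52, 9.68 and 9.65 in CHO-K6. It was lower on all CHO-K6 arrays, at −0.81 and −0.94, as Rps28 was. Rack1, a scaffold on the small-subunit head, was lower by 1.2-fold or more in both pairs too, at −0.32 and −0.31.

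Ribosome biogenesis genes, which make and process ribosomal RNA and assemble the subunits, had medians of −0.16 and −0.22 between the lines over 39 of 47 listed genes. On the untreated arrays 9 (23.1%) were lower by 1.2-fold or more and 5 (12.8%) higher, beside 20.8% and 18% of all transcripts, so the lower count is near the background. On the treated arrays 15 (38.5%) were lower and 4 (10.3%) higher, beside 23.9% and 18.5%. All 4 CHO-K6 arrays lay below both CHO-K1 arrays for 20 of these genes (51.3%) and above both for 6 (15.4%). Of all transcripts 21.1% lay below and 15.9% above. Rrp9, of the small-subunit processome, differed by −0.54 and −0.98, and Nob1, which makes the last cut of 18S ribosomal RNA, by −0.49 and −0.62. Other genes were higher in CHO-K6, among them Fbl, the methyltransferase fibrillarin, at 0.76 and 0.46.

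The translation factors had medians of 0.00 and −0.03 over 27 of 33 listed genes, and their CHO-K6 arrays were below both CHO-K1 arrays for 7 genes (25.9%) and above for 2 (7.41%), beside 21.1% and 15.9% of all transcripts, so the lower count is near the background. Some of them nevertheless matched the ribosomal proteins in size. The elongation factor subunits Eef1b2 (−0.32 and −0.31), Eef1d (−0.41 and −0.43) and Eef1g (−0.33 and −0.38) were lower in CHO-K6, and the helicase Eif4a1 was higher (0.46 and 0.55). Regulators of ribosomal protein synthesis had medians of −0.20 and −0.05 over 15 of 17 listed genes. Lower by 1.2-fold or more were 6 (40%) on the untreated and 6 (40%) on the treated arrays, beside 20.8% and 23.9% of all transcripts. Higher were 4 (26.7%) and 5 (33.3%), beside 18% and 18.5%, so the list moved in both directions. The kinase Mtor differed by −0.54 and −0.51, Larp1, which binds the 5′ pyrimidine tract, by −0.37 and −0.28, and Rps6kb1, an S6 kinase, by 0.48 and 0.53, while Myc stayed at 0.05 and 0.03.

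**Figure D5:**
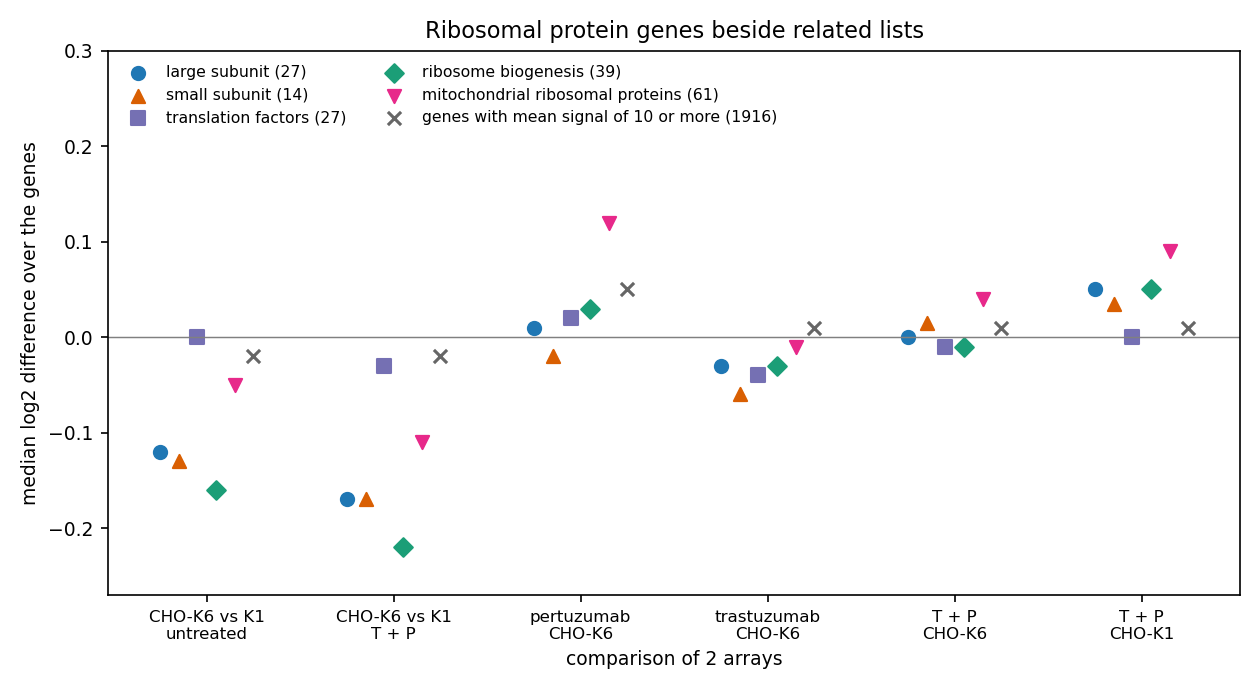
Median log2 difference (y axis) in each of the 6 comparisons (x axis) for the large-subunit genes, the small-subunit genes, translation factors, ribosome biogenesis genes, mitochondrial ribosomal protein genes and the 1916 bright genes. Both subunits lie close together in every comparison and below the bright genes in the line comparisons, and the mitochondrial list reaches 0.12 with pertuzumab.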

How the data were processed

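Total RNA of 6 cultures was hybridised to Affymetrix CHO Gene ST arrays. The authors deposited log2 signals per transcript, named bi-weight averages in the deposited table, made with the Transcriptome Analysis Console. The Affymetrix Expression Console also stands in the submitters' processing notes, and the normalization and genome build are not given in the sources used here. A second deposited table of log2 values held 30934 transcripts and differed by at most 0.005. Deposited values were used without rescaling or a signal filter. No column was left unmapped (0), and no file held comparisons of the authors.

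Of 29700 transcripts 16481 had 1 symbol, 793 several and 12426 none. Differences were taken between arrays, and 1.2-fold counted as changed. There are no replicates, so no test was run. The array count limits the precision. Named genes were the 6 highest and lowest per subunit between the untreated lines, 3 in the other comparisons, the 5 widest gaps between lines, the 5 widest and narrowest ranges, and stalk, 5S, paralog and selected other genes. Members and lists were chosen with earlier results of these data known. Alternatives were quantile normalization, the second table, other choices of transcripts and members, the mean, another reference array and 1.5-fold. The calculations were tested on simulated data. Python 3.11.15, NumPy 2.4.6, pandas 2.3.3, SciPy 1.17.1 and Matplotlib 3.10.9 were used. No sequence or coordinate is printed.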

Additional observations from a re-analysis of the deposited data

Results flagged for a closer look

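In 3 genes the array with trastuzumab + pertuzumab moved from its untreated control in opposite directions in the lines, by 0.05 or more in each. The differences in CHO-K6 and CHO-K1 were −0.05 and 0.05 for Rpl15, −0.14 and 0.05 for Rpl26, and 0.08 and −0.06 for Rps15. With 1 array in each condition the difference between the lines was not tested, and each value is within the median spread of the CHO-K6 arrays (0.13) or close to it.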

How the results depend on the processing

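Of 150 alternative values for 27 results, 138 moved by less than 0.05 on the log2 scale, or by less than 1.5 times for a count, and 12 moved further. The median of the 41 genes ran from −0.17 to −0.10 between the untreated lines and from −0.21 to −0.13 between the treated ones, with the smaller sizes under quantile normalization. The difference between the subunits, large minus small, took both signs over the alternatives in every comparison except the combination in CHO-K1. With means it was 0.0702 untreated, 0.0579 treated and −0.0496 for pertuzumab. With the transcripts of several genes added, an alternative chosen after seeing the data, as was leaving out Rps28, it was 0.07 for the treated lines and −0.05 for pertuzumab, and quantile normalization gave 0.10 for pertuzumab. The cause was not tested. At 1.5-fold, by construction a stricter count, 1 gene was lower between the untreated lines and 2 between the treated ones, and 0 rose and 0 fell with pertuzumab. Genes higher on all CHO-K6 arrays numbered 2 under quantile normalization and 2 with the transcripts of several genes. No paired analysis was possible because each condition has 1 array and no replicate number. The precision is limited by the number of arrays, and the 4 dimmest genes had the widest median range (0.56).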

Other observations

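The mitochondrial ribosomal proteins, which are encoded in the nucleus and build the separate ribosome of the organelle, were also measured. Over 61 genes their median was 0.12 with pertuzumab in CHO-K6, beside 0.00 for the cytosolic genes and 0.04 for all transcripts, and 48 genes (78.7%) lay above 0, where 54.7% of all transcripts did. Of the 61 genes 15 (24.6%) rose by 1.2-fold or more and none fell, where 16.7% of all transcripts were higher and 14.3% lower. Mrpl38 rose by 0.49, Mrps12 by 0.47 and Mrps34 by 0.42. The median was −0.01 with trastuzumab, 0.04 with both antibodies in CHO-K6 and 0.09 with both in CHO-K1.

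Between the lines these genes had medians of −0.05 and −0.11, and single genes moved far in both directions. Mrpl19 read 8.41 and 8.61 in CHO-K1 and 10.05 to 10.15 in CHO-K6, a difference of 1.74 and 1.44, while Mrpl17 differed by −0.64 and −0.69. Among the genes of RNA polymerase I initiation, Taf1d was higher in CHO-K6 (0.88 and 1.03) and fell with pertuzumab by 1.21. Of all 29700 transcripts 157 fell by 2-fold or more with pertuzumab. Taf1d had values of −0.14 with trastuzumab and −0.27 with both antibodies in CHO-K6. It was also lower with both antibodies in CHO-K1, at −0.42.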
